A study of Oreochromis niloticus with 6 samples.

Results

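Messenger RNA of the genes that carry the insulin signal inside the cell was compared in livers of male Nile tilapia, the freshwater fish Oreochromis niloticus, with and without a knockdown of elovl6, the elongase that lengthens palmitic acid. The genes were chosen by product name: every gene whose description began with insulin receptor, insulin receptor substrate, forkhead box protein O, or the alpha, beta or gamma form of the RAC serine/threonine-protein kinase, known as AKT. Insulin receptor-related genes were to be left out, and the file held 0 of them under a name that begins so. This gave 22 of the 29528 genes of the table: 2 receptors, 8 substrates, 7 FoxO genes and 5 AKT genes. The study compared 3 libraries of male livers with elovl6 knocked down by antisense RNA with 3 libraries of wild-type, negative control male livers, and the fish of both groups were fed pellets with 5% palm oil. Livers of 18 fish were extracted, 9 per group, and RNA of 3 replicate tanks per group was pooled. Whether the libraries of a group came from separate fish is not stated, so p-values measure the spread between libraries, which may be technical. Neither the age of the fish nor the antisense construct is described in the labels.

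Insulin binds a receptor that is a tyrosine kinase, and the active receptor phosphorylates its substrates, large docking proteins that recruit phosphatidylinositol 3-kinase (PI3K). The lipid made by PI3K brings AKT to the membrane, where it is switched on. In the mammalian liver, active AKT phosphorylates FoxO factors, which then leave the nucleus and stop driving genes of the fasted state. In mammals the genes for the receptor and for substrate 2 are themselves among those that FoxO factors switch on when insulin is low. Teleost fish carry additional copies of many of these genes from a genome duplication in their ancestry.

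Libraries held 14341242 to 14973737 counted reads in the knockdown and 15322360 to 17245179 in the control group. Levels are the authors' FPKM, fragments per kilobase of a gene's length, relative to all counted reads, and differences are log2 fold changes, knockdown over control, from edgeR's quasi-likelihood test on the read counts. A gene was tested if its mean was at least 1 FPKM, and called at a Benjamini-Hochberg adjusted p under 0.05 over all 11431 genes tested. The targeted gene, elovl6, had 36.6 to 39.3 FPKM with the knockdown, against 160 to 163 FPKM in control livers. The liver label was checked with genes of plasma proteins, picked by product name after the data were seen, which together had 105300 to 105600 FPKM in knockdown livers and 100700 to 102400 FPKM in control livers, with 9 of the 18 tested higher and 8 lower. The fibrinogen genes fgb and fgg, the liver markers listed by symbol that the file held, were both lower, with a summed level of 11820 to 12090 FPKM in knockdown livers and 19650 to 20690 FPKM in control livers. Other tissues differed between the groups. Of 42 genes of pancreatic digestive enzymes, 12 of them at 0 reads throughout, 21 of the 23 tested were lower and 2 higher. Their summed level was 257 to 426 FPKM in the knockdown against 46220 to 47050 FPKM in the control. Genes that matched the same names but are no pancreatic enzymes were left out. With them, 21 of the 26 tested were lower and 5 higher. For 20 hemoglobin genes, 7 of them at 0 reads throughout, the summed level was 2577 to 2797 FPKM against 17050 to 17640 FPKM, with 6 of the 7 tested lower and 1 higher. In these bulk samples, fewer cells of a type and less RNA per cell cannot be told apart. With the exocrine pancreas genes left out before scaling, the 12 genes below were called in the same directions. The log2 fold change of the substrate gene LOC100704325 was 4.51, as with those genes kept. This step changes only the scaling, so it cannot show what either tissue adds to the reads of the 12 genes. The part of either tissue in the results was not tested. Insulin itself, the ligand, had 2 reads in knockdown library 2 and 0 in the other libraries.

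Of the 22 genes, 12 reached a mean of 1 FPKM, and all 12 were called, 9 higher and 3 lower in the knockdown. Among all genes tested, 78.2% were called, 39.1% as higher and 39.1% as lower, so a call alone says little about a single gene in these libraries. In addition, 4 of the 12 passed the filter through the knockdown group alone, with a mean below 1 FPKM in the control. These were LOC100704325, LOC100706939, LOC100709921 and LOC100691860, all called higher. The filter takes the mean of all 6 libraries, so it treats both directions alike. These 4 genes could be tested only because they were higher in the knockdown, so nothing is read from the counts by direction. The FPKM of the groups did not overlap in any of the 12, against 79.5% of all genes tested. At least 2-fold changes were called in 5 of the 12, all higher, while 42.9% of all genes tested were called at least 2-fold in either direction and 22.1% higher. Nothing is read from this count either, since LOC100704325, LOC100706939 and LOC100709921 are among the 5.

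**Figure D1:**
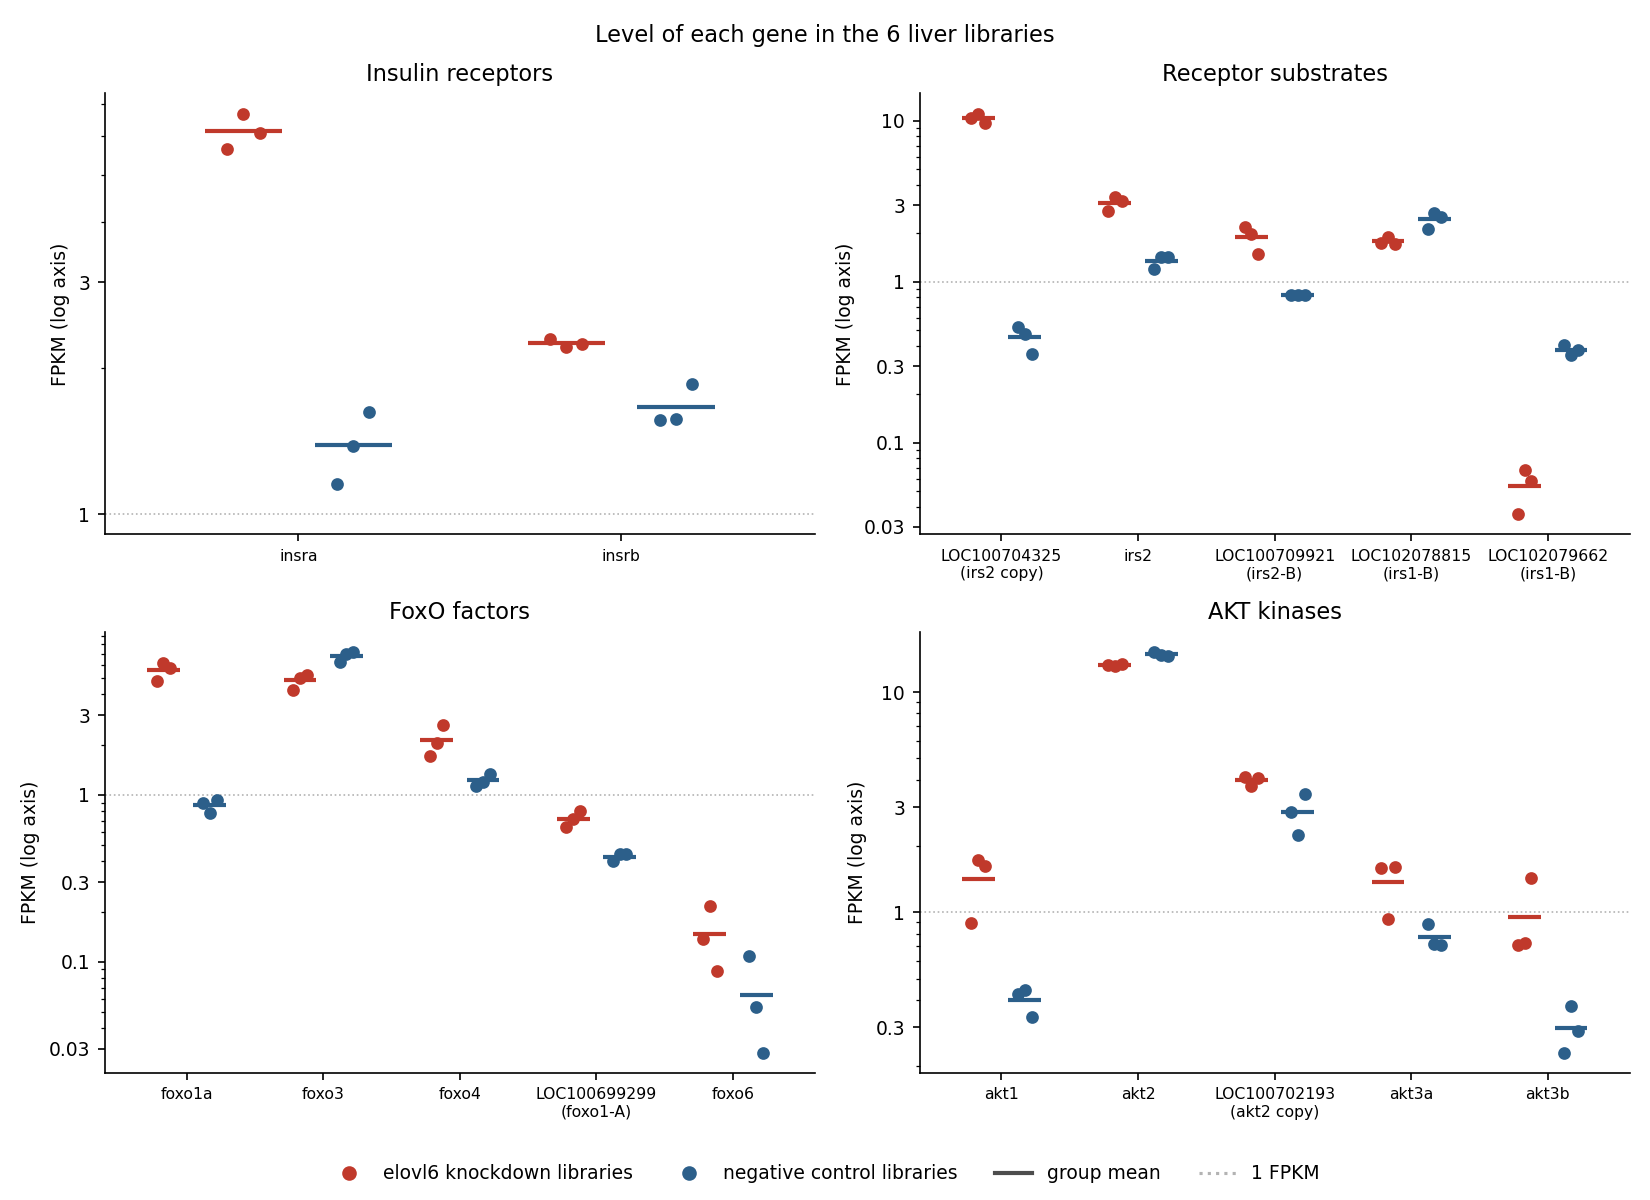
FPKM on a log axis of the 17 genes with enough reads to fit, in each elovl6 knockdown library (red) and each negative control library (blue), with the group mean as a bar and 1 FPKM as a dotted line. The knockdown libraries of LOC100704325 lie between 9.70 and 11.1 FPKM and its control libraries between 0.359 and 0.527, and akt2 is the gene whose group means lie closest together on this scale among those tested.

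The insulin receptor genes, which encode the tyrosine kinase that binds insulin, both rose, one of them far more than the other. LOC100696191, insra in RefSeq (linkage group LG18, 22880000 to 22946786, minus strand), had 5.64, 6.68 and 6.09 FPKM in knockdown libraries 1, 2 and 3, against 1.15, 1.38 and 1.62 FPKM in control libraries 1, 2 and 3. Its lowest knockdown library was well above its highest control library. The difference was 4.43-fold in mean FPKM (log2 fold change 2.14, SE 0.12, edgeR adjusted p = 2.46e-14), on 1811 reads in the knockdown and 461 in the control. LOC100697854, insrb in RefSeq (LG23, 44628722 to 44707714, plus strand), had 2.29, 2.21 and 2.24 FPKM against 1.57, 1.57 and 1.85 FPKM. These groups lay closer together, with a log2 fold change of 0.42 (SE 0.10, edgeR adjusted p = 0.000702). The order of the receptors differed between the groups. In the knockdown insra was the higher of the pair in every library, while in the control insrb was the higher in every library. The control means were 1.66 ± 0.162 FPKM for insrb and 1.39 ± 0.234 FPKM for insra (SD, n = 3), with ranges over the libraries that overlapped. The file's pathway annotation puts 14 of the 22 genes under insulin signalling and 19 under FoxO signalling, insra under both and insrb under neither.

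Receptor substrates dock PI3K to the receptor. Of the 4 genes described as substrate 2 or 2-B, 3 rose and the other was hardly read. Among all genes tested 39.1% were called higher, and LOC100704325 and LOC100709921 passed the filter through the knockdown group alone. Nothing is therefore read from the number that rose. LOC100704325, a substrate 2 gene (LG23, 6088808 to 6102498, plus strand), had 10.4, 11.1 and 9.70 FPKM in knockdown libraries 1, 2 and 3, against 0.527, 0.476 and 0.359 FPKM in control libraries 1, 2 and 3. It was weakly read in every control library, with 140 reads over the 3, and had 2868 reads in the knockdown. Its mean was 23.0-fold higher (log2 fold change 4.51, SE 0.13, edgeR adjusted p = 1.65e-20). At least 4-fold higher calls were made for 3 of the 12 genes, this one, insra and foxo1a, and for 8.45% of all genes tested. Nothing is read from this count, since LOC100704325 and foxo1a passed the filter through the knockdown group alone.

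The genes irs2 and LOC100709921 rose by smaller amounts. The gene named irs2 in the file and irs2b in RefSeq (LG16, 20158239 to 20170975, minus strand) had 2.76, 3.37 and 3.18 FPKM in the knockdown libraries, against 1.20, 1.42 and 1.42 FPKM in the control libraries (log2 fold change 1.19, SE 0.14, edgeR adjusted p = 5.31e-08). LOC100709921 (LG3, 32619185 to 32648269, minus strand), a substrate 2-B by its description in the file but irs4b in RefSeq, had 2.20, 1.98 and 1.49 FPKM against 0.825, 0.830 and 0.830 FPKM (1.18, SE 0.15, edgeR adjusted p = 1.51e-07). Both genes were a little over 2-fold higher, with no overlap between the groups. Their FPKM differed in spread, LOC100709921 varying more among the knockdown libraries than among the controls.

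Genes of substrate 1, the other main docking protein of insulin-sensitive tissues in mammals, were both lower in the knockdown. LOC102078815, a substrate 1-B gene (LG3, 17320881 to 17379212, minus strand), had 1.74, 1.91 and 1.72 FPKM in the knockdown libraries, against 2.13, 2.70 and 2.53 FPKM in the control libraries (log2 fold change -0.46, SE 0.12, edgeR adjusted p = 0.00119). The second substrate 1-B gene, LOC102079662 (LG10, 11351549 to 11372496, plus strand), was below the filter, with an annotated length of 17399 bases. It had 9, 17 and 15 reads in the knockdown, against 116, 94 and 113 reads in the control, or 0.0539 ± 0.0164 against 0.377 ± 0.0252 FPKM (SD, n = 3 each). Every control library had several times the reads of every knockdown library. With edgeR's own filter on reads, filterByExpr, which tested 15329 genes, its log2 fold change was -2.88 (SE 0.32, edgeR adjusted p = 1.06e-08). It was thus the substrate with the lowest fold change among those fitted.

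The remaining substrate genes were hardly read. LOC102081223, described as substrate 2-B, had 2 reads with the knockdown and 0 without it. LOC109195248, described as substrate 4-like, also had 2 knockdown reads and 0 control reads, and LOC109197091, described as substrate 4, had 0 knockdown reads and 2 control reads. At such counts no difference could be detected. LOC109195248 lies wholly inside trhde, on the opposite strand, and its reads could not be told from those of that gene, since the strand setting of the counting is not given.

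FoxO factors are the forkhead transcription factors that AKT keeps out of the nucleus, and foxo1a was the member that rose most. LOC100706939, foxo1a in RefSeq (LG14, 31605496 to 31631227, plus strand), had 4.82, 6.20 and 5.74 FPKM in knockdown libraries 1, 2 and 3, against 0.889, 0.778 and 0.929 FPKM in control libraries 1, 2 and 3. Its mean was 6.45-fold higher (log2 fold change 2.68, SE 0.15, edgeR adjusted p = 1.35e-14), on 1310 and 229 reads. No control library reached a level of 1 FPKM, and no knockdown library was below 4.8 FPKM.

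The gene foxo3, foxo3b in RefSeq (LG15, 12034109 to 12077598, minus strand), fell. It had 4.26, 5.04 and 5.26 FPKM in the knockdown libraries, against 6.29, 7.01 and 7.18 FPKM in the control libraries (log2 fold change -0.50, SE 0.10, edgeR adjusted p = 5.02e-05). The gene foxo4 (LG2, 20378862 to 20388255, plus strand) rose, with 1.71, 2.04 and 2.64 FPKM against 1.14, 1.20 and 1.34 FPKM (0.79, SE 0.17, edgeR adjusted p = 0.000195). Both changes were under 2-fold and their groups did not overlap.

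A second foxo1-A gene, LOC100699299 (LG10, 11497268 to 11514488, plus strand), stayed below 1 FPKM in all libraries, with 0.643 to 0.805 FPKM in knockdown livers and 0.399 to 0.442 FPKM in control livers. In the filterByExpr fit its log2 fold change was 0.67 (SE 0.28, edgeR adjusted p = 0.038), and without any filter it was not called (adjusted p = 0.0633). The foxo6 gene LOC100696396, foxo6b in RefSeq, had 39 reads in the knockdown and 19 in the control, overlapping ranges and no call (log2 fold change 1.11, SE 0.64, filterByExpr adjusted p = 0.121). LOC100706370, foxo3a in RefSeq, had 2 reads against 3. LOC100701297, described as foxo1-B, had 0 reads in all 6 libraries, which by a floor of 3 reads a library allows a level of up to 0.0301 to 0.0362 FPKM, for counting error only.

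AKT genes encode the kinases between PI3K and the FoxO factors, and their changes differed by copy. The 3 copies that passed the FPKM filter changed by less than 2-fold, whereas akt1 and akt3b, fitted with filterByExpr, were 3.53-fold and 3.20-fold higher in mean FPKM. LOC100707971, akt2 in RefSeq (LG14, 16775530 to 16785200, plus strand), was the AKT gene with the highest level in both groups, with 13.3, 13.1 and 13.4 FPKM in knockdown libraries 1, 2 and 3, against 15.2, 14.8 and 14.6 FPKM in control libraries 1, 2 and 3. The mean was 1.12-fold lower in the knockdown (log2 fold change -0.17, SE 0.07, edgeR adjusted p = 0.028). That call is marginal: the adjusted p was 0.0615 with limma on log2(FPKM + 1) and 0.0476 with DESeq2, and over all alternatives it ranged from 0.00158 to 0.12. In mammals akt2 is the form most tied to insulin action on glucose.

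The other beta gene, LOC100702193 (LG10, 10049068 to 10078025, plus strand), had 4.10, 3.75 and 4.09 FPKM in the knockdown libraries, against 2.85, 2.24 and 3.45 FPKM in the control libraries (log2 fold change 0.47, SE 0.17, edgeR adjusted p = 0.0158). That call rested on control library 2, without which the adjusted p was 0.114 and the log2 fold change 0.32. LOC100691860, akt3a in RefSeq (LG13, 11500629 to 11560700, minus strand), had 1.58, 0.936 and 1.61 FPKM against 0.882, 0.714 and 0.711 FPKM (0.83, SE 0.22, edgeR adjusted p = 0.00158). Its second knockdown library lay just above the highest control, and 175 of its bases overlap sdccag8 on the opposite strand.

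The alpha gene akt1 (LG19, 8853917 to 8885717, minus strand) and the second gamma gene LOC100692017, akt3b in RefSeq (LG6, 5255517 to 5285573, minus strand), were below the filter. The level of akt1 was 0.890, 1.73 and 1.62 FPKM in the knockdown libraries, against 0.426, 0.443 and 0.333 FPKM in the control libraries, and that of akt3b was 0.713, 0.724 and 1.43 FPKM against 0.230, 0.377 and 0.290 FPKM. Both were higher in every knockdown library than in any control library. In the filterByExpr fit their log2 fold changes were 1.73 (SE 0.33, edgeR adjusted p = 4.29e-05) and 1.59 (SE 0.30, edgeR adjusted p = 4e-05). That fit called 16 of the 17 genes it could test, 12 higher and 4 lower, where 72.8% of all genes it tested were called, 36.8% as higher and 36.0% as lower.

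**Figure D2:**
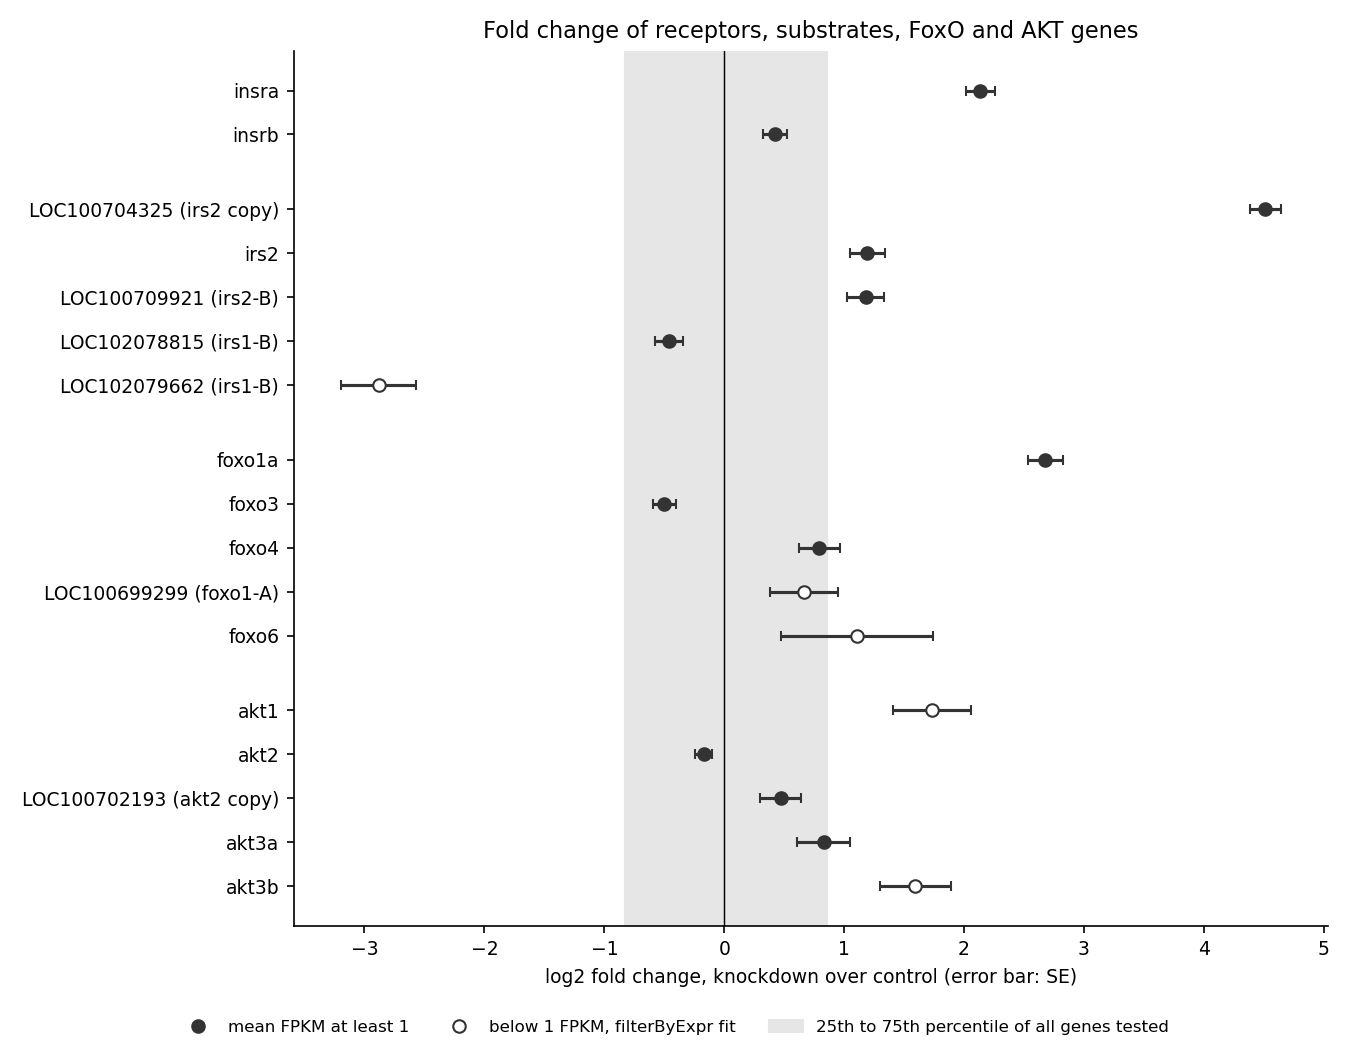
Log2 fold change, knockdown over control, of the same 17 genes with its SE as error bar. Filled points are genes with a mean of at least 1 FPKM and open points genes below it, taken from the filterByExpr fit. The grey band spans the 25th to the 75th percentile of all genes tested at a mean of at least 1 FPKM, -0.83 to 0.86. In the filterByExpr fit these percentiles are -0.86 and 0.97. To the right of the band lie LOC100704325 at 4.51, foxo1a at 2.68, insra at 2.14, irs2, LOC100709921, akt1, akt3b and foxo6. LOC102079662 at -2.88 lies to its left.

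Copies of a family were compared with each other within each library, as the log2 ratio of their FPKM with 0.1 added, for the 13 pairs of one family in which both genes were tested. The groups did not overlap in 11 of the 13 ratios, and each of these had p = 0.1 by a 2-sided exact permutation test of 3 against 3 libraries, the smallest this design allows (0.118 after Benjamini-Hochberg adjustment over the 13 pairs). No pair can therefore pass 0.05, and the sizes are given as a description. The pairs share genes, and how often the ratios of other gene pairs overlap was not computed. Taken singly, 79.5% of all genes tested did not overlap, so nothing is read from the count of pairs. The ratio of LOC100704325 to the substrate 1-B gene LOC102078815 moved furthest, to a mean of 2.48 ± 0.048 in the knockdown, against -2.21 ± 0.348 in the control (SD, n = 3 each). Its ratio to irs2 was 1.72 ± 0.154 against -1.39 ± 0.341, so the copy of substrate 2 with the higher level differed between the groups. The foxo1a to foxo3 ratio averaged 0.197 ± 0.086 in knockdown libraries and -2.84 ± 0.164 in control libraries, and the insra to insrb ratio was 1.41 ± 0.145 and -0.255 ± 0.135. The gene with the higher mean changed in 8 of the 13 pairs. How often this happens in other gene pairs was not computed. LOC100704325, LOC100709921 and foxo1a passed the filter through the knockdown group alone, which favours such a change, so nothing is read from this count. For LOC100709921 to LOC102078815, 1 of the 8, the knockdown ratio averaged 0.058 and ran from -0.197 to 0.322, so neither gene was higher in every knockdown library. Ratios overlapped for irs2 to LOC100709921 (0.698 ± 0.365 in the knockdown and 0.637 ± 0.128 in the control, exact p = 0.8) and for akt3a to LOC100702193 (-1.50 ± 0.34 and -1.75 ± 0.335, exact p = 0.5).

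**Figure D3:**
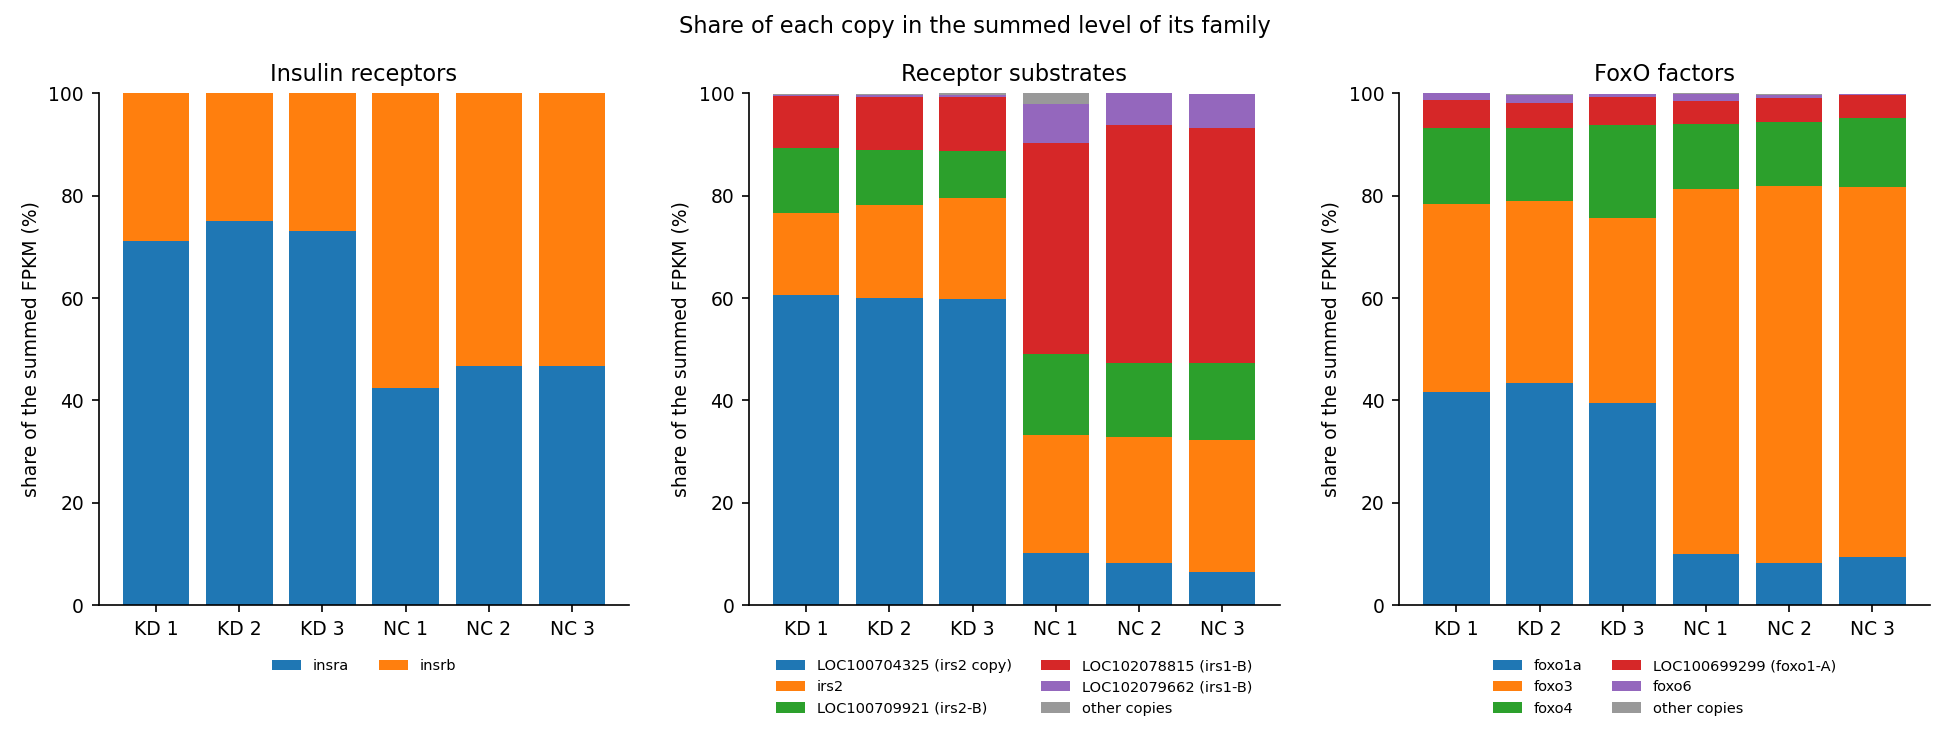
Share of each copy, in percent, in the summed FPKM of the receptors, the substrates and the FoxO genes, for knockdown libraries 1 to 3 (KD) and control libraries 1 to 3 (NC). LOC100704325 holds 59.9 to 60.7% of the substrate level in the knockdown libraries and 6.50 to 10.2% in the control libraries.

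The summed level of each family, and the copy that makes up most of it, differed too. Substrate genes together had 17.3 ± 1.15 FPKM with the knockdown, against 5.49 ± 0.294 FPKM in control livers (SD, n = 3 each). LOC100704325 made up 60.2% ± 0.406 of this in the knockdown and 8.30% ± 1.83 in the control, while LOC102078815 made up 10.4% ± 0.281 and 44.5% ± 3.01. In the knockdown LOC100704325 had the highest level, then irs2, then LOC100709921 and LOC102078815, which overlapped. In the control the levels ran from LOC102078815 through irs2 and LOC100709921 to LOC100704325 and LOC102079662, the last pair overlapping.

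Receptor genes summed to 8.38 ± 0.478 FPKM in knockdown livers and 3.05 ± 0.385 FPKM in control livers, with insra at 73.1% ± 2.02 and 45.3% ± 2.5 of the sum. FoxO genes summed to 13.5 ± 1.63 and 9.42 ± 0.544 FPKM. Within them foxo3 held 36.1% ± 0.704 in the knockdown and 72.4% ± 1.27 in the control, and foxo1a 41.6% ± 2.0 and 9.20% ± 0.953. In the knockdown foxo1a was above foxo3 within every library, though their FPKM ranges over the libraries overlapped. In the control foxo1a ranked below foxo3 and foxo4 with no overlap. AKT genes summed to 21.0 ± 1.01 and 19.2 ± 0.562 FPKM, of which akt2 held 63.3% ± 2.42 and 77.5% ± 2.16. The AKT sum thus differed by 1.10-fold between the groups, against 3.15-fold for the substrates, 2.75-fold for the receptors and 1.43-fold for FoxO.

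Other genes of the pathway were taken from a list of 101 genes by product name, of which 69 were tested. Of these, 34 rose, 22 fell and 13 were not called, with a median log2 fold change of 0.16, against -0.01 over all genes tested. Among those that rose, gab3, sos2, LOC100700725, LOC100702008 and LOC100690652 passed the filter through the knockdown group alone. Their control means were below 1 FPKM, while every gene that fell had a knockdown mean above 1 FPKM. The genes with a control mean below 1 FPKM could be tested only because they were higher in the knockdown. Nothing is therefore read from the split. The share called was close to the 78.2% of all genes. Adaptors that bind the receptor or its substrates were called in 10 of 10 tested genes, 6 higher and 4 lower. One of the 2 tested copies of growth factor receptor-bound protein 10, LOC100694675, an adaptor that binds the receptor and dampens its signal in mammals, rose (log2 fold change 2.62, SE 0.08). Its other copy, LOC100703704, named here after its value was seen, fell (-0.57, SE 0.12). Also higher were the adaptor genes gab3 (2.37, SE 0.28) and LOC100696779, an SHC-transforming protein 2 (2.07, SE 0.06).

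PI3K subunits also changed in both directions, with 3 of the 8 tested higher, 4 lower and 1 not called. Of all genes tested, 39.1% were called higher and 39.1% lower, so nothing is read from this split. LOC100704479, a catalytic subunit alpha gene, had 11.7, 11.5 and 12.3 FPKM in the knockdown libraries, against 1.11, 1.17 and 1.45 FPKM in the control libraries (log2 fold change 3.24, SE 0.09, edgeR adjusted p = 1.04e-20). This was the largest rise among the PI3K genes tested. The other alpha copies, named after their values were seen, were LOC100707861, which rose (0.98, SE 0.16), and LOC100706609, which fell (-1.18, SE 0.16). The regulatory subunit gene pik3r1, also named after its value was seen, had the highest level of the 8 and fell, averaging 68.7 FPKM in knockdown livers and 136 FPKM in control livers (-0.99, SE 0.04).

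Of the kinases and complexes that activate AKT, 1 of 4 tested genes was called, mtor, which rose (log2 fold change 0.40, SE 0.11). The gene for PDK1, pdpk1, which phosphorylates AKT, averaged 6.82 FPKM in knockdown livers and 6.21 FPKM in control livers and was not called (edgeR adjusted p = 0.22). Among all genes tested, 78.2% were called, 39.1% as higher and 39.1% as lower, so nothing is read from the counts here. Lipid and protein phosphatases that oppose the pathway were called in 6 of 7 tested genes, 3 higher and 3 lower. Both copies of pten, the phosphatase that reverses PI3K, were among those that fell, LOC100695712 by 0.99 and LOC100707201 by 0.61 on the log2 scale, as was phlpp1 (-1.29). Those that rose were LOC100702008, described as the lipid phosphatase TPTE2 (1.18, SE 0.32), inppl1 (1.06, SE 0.15) and inpp5d (0.75, SE 0.15), whose products act on the same lipid. These phosphatase genes were named after their values were seen, and LOC100702008 passed the filter through the knockdown group alone.

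Inhibitors and pseudokinases were called in 7 of 8 tested genes, 6 higher and 1 lower (median log2 fold change 2.36). Of all genes tested, 78.2% were called and 39.1% were called higher. Those that rose were the mTOR inhibitor genes ddit4 (log2 fold change 4.87), LOC100696738 (2.72) and LOC100699412 (2.16), the suppressor of cytokine signalling 3 genes socs3 (3.32) and LOC100704232 (2.55), and socs1. The single gene that fell was trib2 (-2.33, SE 0.10), whose pseudokinase in mammals restrains FoxO factors. Among 29 tested genes, listed together as targets and partners of AKT and the separate Sgk kinases, 13 rose, 9 fell and 7 were not called. The repressors of translation LOC100703341 (3.38) and LOC100692160 (2.84), of the 4E-binding protein family, rose most, and gsk3b, the kinase that AKT inhibits, fell (-2.12, SE 0.08). Related genes, named after their values were seen, changed less. Of the 4E-binding proteins, eif4ebp2 rose (1.54) and LOC100704901, another protein 1 gene, was not called (-0.28). The other kinase 3 beta gene, LOC100709006, was not called (-0.46), and the kinase 3 alpha gene LOC100694962 fell (-0.29). The FoxO cofactors tested were 2 copies of the acetyltransferase p300, both higher, and the deacetylase gene sirt1, which fell (-0.70, SE 0.19).

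**Figure D4:**
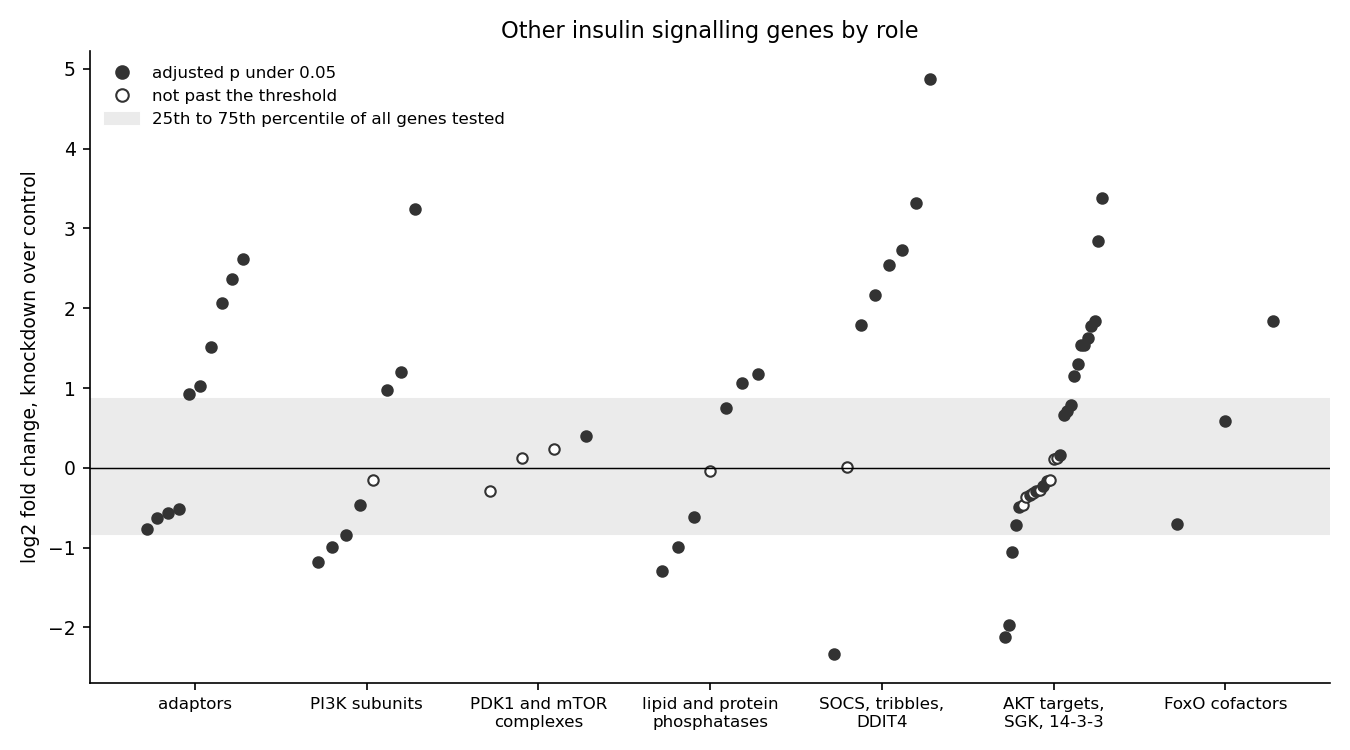
Log2 fold change, knockdown over control, of the 69 tested genes of the pathway list by role, filled where the adjusted p was under 0.05 and open where it was not. The grey band spans the 25th to the 75th percentile of all genes tested. Of the 8 genes for SOCS, tribbles and DDIT4 proteins, 6 lie above 0 and past the threshold, trib2 lies at -2.33, and the gene for tribbles homolog 1 lies near 0.

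By position, the 22 genes were spread over 14 linkage groups, with 4 on LG23 and 3 on LG10. The file names no genome build, but start and end of all 22 equalled those in the RefSeq table of the O_niloticus_UMD_NMBU assembly, from which the linkage groups are taken. On LG10, the substrate 1-B gene LOC102079662 and the foxo1-A gene LOC100699299 lie 124.8 kb apart, with 12 genes between them, and had log2 fold changes of -2.88 and 0.67 in the filterByExpr fit. The substrate 2 gene that rose most, LOC100704325, does not overlap another annotated gene. Its neighbour LOC100704055, a lysosomal acid phosphatase gene, was higher (log2 fold change 0.88, SE 0.12), and lig4 on its other side had 0.426 ± 0.0403 FPKM in knockdown livers and 1.23 ± 0.362 FPKM in control livers (SD, n = 3 each). Neither neighbour changed by an amount near that of LOC100704325.

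The genes with the pattern most like LOC100704325, outside these families, were ranked by the root mean square difference of mean-centred log2(FPKM + 1) over the 6 libraries. The nearest were LOC100699941 (apolipoprotein Eb, difference 0.0612), LOC100691737 (perlucin-like protein), LOC100710289 (TNFAIP3-interacting protein 1), LOC100703541 (microfibril-associated glycoprotein 4) and fadsd6 (delta-6 fatty acyl desaturase). Their levels differ widely, from 6.63 FPKM for LOC100710289 to 14840 FPKM for LOC100691737 in the knockdown on average. Adding 1 compresses the change of weakly read genes on this scale, so these genes did not rise by the same amount. From the read counts, their log2 fold changes in the order named were 2.94, 2.89, 7.81, 3.01 and 3.09, against 4.51 for LOC100704325. LOC100710289 had only 2 reads in the control group. Nothing beyond the size of the change on the compressed scale was compared.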

How the data were processed

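Poly(A) RNA of 3 elovl6 knockdown and 3 negative control libraries of liver was read in 150 bp pairs. The submitters' processing notes name cutadapt 1.9 and HISAT. The sources used here give no counting program, strand setting, rule for reads that match several copies, or genome build. Per the file headers, the deposited table gives a read count and an FPKM per gene and library. The authors' FPKM equalled count over gene length and library total in 100% of values above 0 (relative tolerance 1e-05). No column belonged to another series. Columns were assigned by sample names in the headers.

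Counts were fitted with edgeR 4.0.16 in R 4.3.3 (glmQLFit and glmQLFTest, TMM scaling, no covariate, both groups), with Benjamini-Hochberg adjusted p over the 11431 genes with a mean of at least 1 FPKM, and 18097 genes were left out. The fit was tested on simulated data in which few genes changed, so that test does not cover data with 78.2% of genes called. The SE is the log2 fold change over the root of F. Genes below the filter were fitted with filterByExpr. Alternatives used DESeq2 1.42.0 and limma 3.58.1. Exact permutation tests used scipy 1.17.1.

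The genes and lists were chosen with earlier results of these data known. All 22 genes are named, and of the pathway list the called genes with an absolute log2 fold change of at least 2. Product names ending in a number were matched to that number alone. Of the marker lists, liver symbols matched 2 genes and product names chosen after seeing the data 21. Of the 45 genes matching exocrine pancreas names, 3 were left out of the summed level and the counts because they are no pancreatic enzymes. With them the level was 4385 to 4534 FPKM in the knockdown and 47210 to 48040 in the control, and 5 of 26 tested genes were higher. The endocrine pancreas list matched 3 genes (2.85 to 3.47 FPKM in the knockdown and 1.45 to 1.93 in the control), of which pdx1 was tested and higher. The skeletal muscle list matched 0. Depth limits genes with few reads. The floor given for a gene without reads covers counting error only, while the SEs include the spread between libraries.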

Additional observations from a re-analysis of the deposited data

How the results depend on the processing

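Under 16 alternatives (other scaling, DESeq2, limma, other filters, exocrine pancreas genes left out, a replicate block, and each library left out), the direction of each of the 12 tested genes stayed as given wherever it could be fitted. LOC100704325, akt2 and foxo3 had a value under all 16, and the other 9 genes under 15, since they fell below a minimum of 5 FPKM. Calls were lost for akt2 (LOC100707971) with limma on log2(FPKM + 1) (log2 fold change -0.15), limma on log2(FPKM + 0.1) (-0.16) and a minimum of 5 FPKM (-0.11), and for LOC100702193 without a filter (0.38). With a library left out, akt2 ranged from -0.19 to -0.14 and LOC100702193 from 0.32 to 0.63. The call of akt2 was lost without knockdown library 2 (adjusted p = 0.0511) and without control library 1 (0.112), that of LOC100702193 without control library 2. With limma on log2(FPKM + 1), which shrinks changes of weakly read genes, LOC100704325 had 2.97 in place of 4.51. A minimum of 5 FPKM left 5469 genes, with 2341 called higher and 2321 lower, 1 and 1 of these families, and 17 and 9 of the pathway list. The difference of the irs2 to LOC100709921 ratio, 0.06, ranged from -0.11 to 0.25 with a library left out and turned to -0.01 without control library 1 and -0.11 without knockdown library 3. The replicate numbers did not pair libraries (correlation of same-numbered deviations -0.003 to 0.006), and the replicate block called 9 higher and 3 lower. The median of all genes moved by under 0.1 with every scaling. Scaling itself sets the level counted as no change, so this cannot show that the level is right. The log2 fold change of akt2 ranged from -0.27 to -0.11 over all alternatives. The planned search for promoter motifs was not run. Read numbers limit the weakly read genes: akt3a had 413 reads in the knockdown and 259 in the control.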
